A study of Homo sapiens with 6 samples.

Results

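The genes described here were the expressed protein-coding genes that span more than 400 kb of genome. They were chosen by 3 values of the deposited tables, namely the protein-coding biotype, the distance from gene start to gene end, and a mean of at least 20 raw counts over the 3 vehicle samples. Genes whose symbol starts with CDH, COL, LAM, ITG, SEMA, PLXN, EPH, KIF or SLC were left out. This gave 249 genes of the 58735 in the count table, of which 19951 were protein-coding. Of 494 protein-coding genes over 400 kb at any level, 217 were under the count limit and 11 were left out by name. All 249 passed the filter on low counts and were among the 14736 genes tested.

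RNA was sequenced from MDA-MB-231, a human triple-negative breast cancer cell line, labelled wild type and grown, by its sample labels, in RPMI-1640 with 10% fetal bovine serum, where the methods of the study give DMEM. A total of 3 samples received vehicle and 3 received Salvia chinensis Benth (SCH), a medicinal herb, at 100 mg/l, each for 24 h. The comparison asks which transcripts differ between herb-treated and vehicle-treated cells. Total counts per sample were 20291379, 18714240 and 18334857 with vehicle and 16836369, 17979434 and 18414924 with SCH. All samples are of 1 cell line, and the labels do not say whether the 3 of a group came from separate cultures, so that p-values measure the spread between these samples, which may be technical. In bulk RNA, fewer cells and less RNA per cell cannot be told apart.

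The line was checked against its markers. VIM, CD44 and AXL, which mark mesenchymal-like breast cancer cells, had vehicle means of 1406, 999.7 and 1562 CPM (counts scaled by the TMM method to a common library size). ESR1 had a vehicle mean of 0.218 CPM and PGR had 0 counts in every vehicle sample. Both encode hormone receptors that triple-negative lines lack. ERBB2, the gene of HER2, had a vehicle mean of 71.3 CPM. Of the markers of other cells, CD3E (T cells) had 0 counts in every vehicle sample, and PTPRC, a leukocyte marker, had a mean of 1.99 CPM with vehicle and 0.290 CPM with SCH. The markers moved in both directions. VIM, AXL and the epithelial EPCAM fell by 0.56, 0.84 and 0.52 on the log2 scale (SE 0.04, 0.05 and 0.10), COL1A1 and ERBB2 rose by 0.76 and 0.29 (SE 0.14 and 0.06), and CD44 was at 0.03 (SE 0.05). Their part in the results was not tested.

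RNA polymerase II copies a gene from its start site to its end, introns included, and the introns are then removed. In a gene of this size nearly all of the copied length is intron, so a complete transcript takes far longer to make than that of a short gene, although the mature mRNA need not be long. Many genes of this size encode adhesion molecules, ion channels, scaffolds and signalling proteins of excitable tissues, and some, such as FHIT and WWOX, lie at chromosomal fragile sites. One gene can also have several start sites, and transcripts that begin late in the gene cover only its last part.

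For this reason the upstream bases of genes at both ends of the response are shown. RefSeq (GRCh38.p14) gave a start inside or shortly before 194 of the 249 genes, and 103 of these had 2 or more separate starts. The 4 genes below have the 2 largest falls and the 2 largest rises among genes that have an entry and average 50 counts or more over the 6 samples. Each sequence is the part of the 250 bases before a RefSeq start that lies outside annotated exons, 5′ to 3′ on the strand of the gene. Capitals mark the CCAAT motif and the GGGCGG motif, searched on both strands together with TATAAA.

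NLGN1, chr3:173395702-173395951, plus strand, outer start: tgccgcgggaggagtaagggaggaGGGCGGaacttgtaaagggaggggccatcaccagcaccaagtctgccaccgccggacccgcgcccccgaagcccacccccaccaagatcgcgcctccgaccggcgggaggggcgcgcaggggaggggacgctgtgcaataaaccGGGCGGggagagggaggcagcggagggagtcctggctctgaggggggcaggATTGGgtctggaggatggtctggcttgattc
PARD3B, chr2:204545225-204545474, plus strand, its 1 start: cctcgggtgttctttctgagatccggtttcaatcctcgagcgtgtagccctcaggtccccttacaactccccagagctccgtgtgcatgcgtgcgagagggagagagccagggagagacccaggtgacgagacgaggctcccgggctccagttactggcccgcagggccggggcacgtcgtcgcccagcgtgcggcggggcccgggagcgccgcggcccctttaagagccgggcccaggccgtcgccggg
PCDH9, chr13:67230446-67230586, minus strand, its 1 start: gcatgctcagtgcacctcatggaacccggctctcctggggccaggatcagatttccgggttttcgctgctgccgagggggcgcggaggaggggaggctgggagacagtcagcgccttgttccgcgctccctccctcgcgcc
MAST4, chr5:66596143-66596360, plus strand, outermost of 4 starts: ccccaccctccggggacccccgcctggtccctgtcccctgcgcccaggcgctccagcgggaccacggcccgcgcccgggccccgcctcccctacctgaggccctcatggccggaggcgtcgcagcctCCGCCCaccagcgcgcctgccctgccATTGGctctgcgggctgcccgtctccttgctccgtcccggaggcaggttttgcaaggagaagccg
MAST4, chr5:67004405-67004619, plus strand, innermost of 4 starts: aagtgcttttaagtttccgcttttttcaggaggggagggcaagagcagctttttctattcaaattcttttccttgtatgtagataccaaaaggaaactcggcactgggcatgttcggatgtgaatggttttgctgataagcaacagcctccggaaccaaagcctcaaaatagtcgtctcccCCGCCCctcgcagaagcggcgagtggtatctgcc

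From its outermost start MAST4 runs 573 kb to the gene end, and from its innermost start 165 kb. NLGN1 has a second start 889 kb from the gene end, so that both of its starts lie at nearly the full span from that end. Over the 194 genes the 250 bases before the outermost start held GGGCGG in 53.6%, CCAAT in 30.4% and TATAAA in 8.25%. The shares over all 35116 RefSeq starts, inner starts included, were 42.6%, 32.0% and 10.7%. The median GC content of these bases was 65.8% in the 194 genes and 58% over all starts, so that the sets differ in more than gene span. Among the 194, the 51 kept genes (defined below) had shares of 54.9%, 33.3% and 9.80%. The 87 genes among them that were lowered by 1 or more on the log2 scale had 50.6%, 27.6% and 8.05%.

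SCH lowered most of these genes. At an adjusted p under 0.05 (edgeR quasi-likelihood test, Benjamini-Hochberg over all tested genes) 192 of 249 (77.1%) were lowered, against 29.4% of all genes tested. A further 24 (9.64%) were raised, against 29.3% of all genes tested, and 33 were not called. A fall of at least 1 on the log2 scale, to 50% of the vehicle level or less, was seen in 111 (44.6%), against 4.88% of all genes tested. In 196 genes every SCH sample lay below every vehicle sample, against 31.3% of all genes tested, and in 24 every SCH sample lay above, against 31.1% of all genes tested. Because the vehicle counts chose the genes, and these counts also enter the fold change, the same was computed for genes over 400 kb chosen by their SCH counts, where 155 of 211 were lowered and 24 raised, with a median of −0.73.

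The median log2 fold change of the 249 genes was −0.87 (quartiles −1.63 and −0.30), which leaves 54.5% of the vehicle level. The median was −0.0034 over all genes tested and 0.015 over 11198 tested protein-coding genes of 400 kb or less chosen by the same count and name rule. Set against the vehicle mean, the median gene lay at −0.030, −0.025 and 0.047 in the 3 vehicle samples and at −0.82, −0.88 and −0.91 in the 3 SCH samples. The 3 SCH samples thus gave nearly the same value, and 211, 208 and 210 of the 249 genes lay below their vehicle mean in them, where 158, 151 and 86 did so in the vehicle samples. The 249 genes took 0.752% ± 0.0282 of all counts with vehicle and 0.583% ± 0.0149 with SCH (SD, n = 3 each).

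The falls described first are the largest among genes averaging 50 counts or more, and those of rarer genes such as GRIK4 are given with their function list. SHANK2, a scaffold of the postsynaptic density, had 15.8, 15.9 and 17.4 CPM with vehicle and 0.745, 0.913 and 0.526 CPM with SCH. This is a log2 fold change of −4.48 (SE 0.17, edgeR adjusted p = 7.0e-16), or 4.47% of the vehicle level. GRIP1, a scaffold that binds glutamate receptors, went from 7.18, 6.74 and 6.92 CPM to 0.459, 0.322 and 0.368 CPM. NLGN1, the adhesion molecule neuroligin, went from 7.48, 7.35 and 8.66 CPM to 0.344, 0.215 and 0.736 CPM. The log2 fold changes were −4.16 (SE 0.23) for GRIP1 and −4.15 (SE 0.26) for NLGN1 (−4.77 without SCH replicate 3), and no SCH value came near a vehicle value. PARD3B, a relative of the polarity protein PARD3, had 11.2, 10.6 and 11.4 CPM with vehicle and 0.860, 0.913 and 0.736 CPM with SCH, a log2 fold change of −3.72 (SE 0.18). PARD3 itself fell by 0.79 (SE 0.06).

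FHIT, a diadenosine triphosphate hydrolase whose gene spans 1502 kb, had 6.10, 5.63 and 5.45 CPM with vehicle and 0.287, 0.483 and 0.684 CPM with SCH. RAD51B, which acts in homologous recombination, had 7.13, 7.97 and 7.53 CPM against 0.688, 0.966 and 0.526 CPM. GPC6, a glypican of the cell surface, had 15, 16.3 and 16.8 CPM against 1.26, 1.61 and 1.79 CPM. Their log2 fold changes were −3.53 (SE 0.25), −3.36 (SE 0.21) and −3.35 (SE 0.15), and in each gene the groups stood apart. The adhesion molecule SDK1 fell by 3.41 (SE 0.15). In all, 14 genes (5.62% of the 249) kept under 10% of their vehicle level and 41 (16.5%) kept under 25%. Shares of all genes tested at these limits were not computed. At a log2 fold change of −1 or less the shares were 44.6% of the 249 and 4.88% of all genes tested. TMEM132D, a membrane protein gene chosen after its values were seen, had 91 counts over the 3 vehicle samples and 0 over the SCH samples. Against a floor of 3 counts over the group it was at least 30.2-fold lower, and with this bound in place of its fitted value the median of the 249 genes was unchanged at −0.87.

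**Figure D1:**
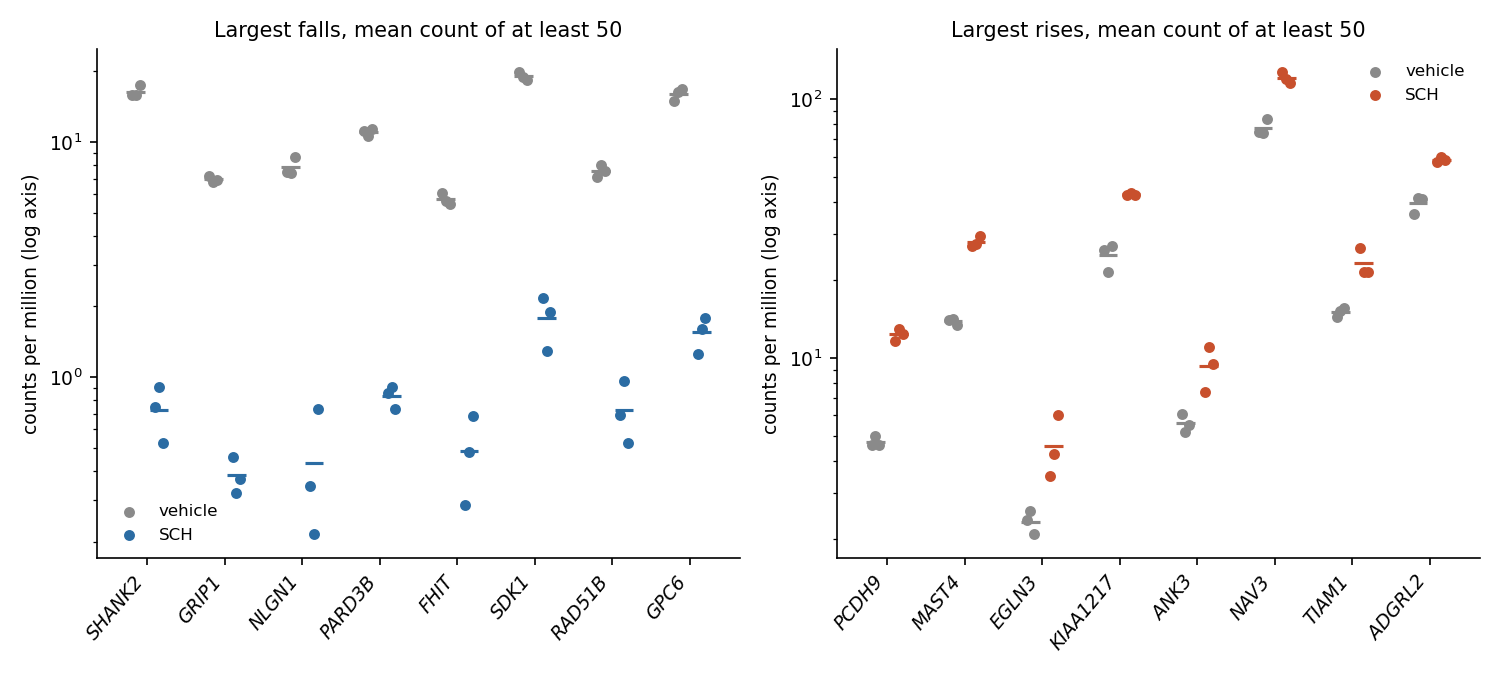
Level of the 8 genes with the largest falls (left) and the 8 with the largest rises (right) in each sample, in CPM on a log axis, among those averaging 50 counts or more. Points are single samples (3 vehicle, 3 SCH) and short lines their means, and in none of the 16 genes do the groups overlap.

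The rises were smaller. PCDH9, a protocadherin of cell-cell contacts, had 4.61, 5.01 and 4.61 CPM with vehicle and 11.6, 12.9 and 12.4 CPM with SCH. This is a log2 fold change of 1.38 (SE 0.12, edgeR adjusted p = 1.1e-09), or 2.60-fold. MAST4, a microtubule-associated serine/threonine kinase, had 14, 14.1 and 13.4 CPM against 27.2, 27.6 and 29.6 CPM, a log2 fold change of 1.02 (SE 0.08). EGLN3, a prolyl hydroxylase that marks hypoxia-inducible factor for destruction, rose by 0.97 (SE 0.21), with its 3 SCH samples spread between 3.50 and 5.99 CPM. KIAA1217 rose by 0.78 (SE 0.08), the ankyrin ANK3 by 0.73 (SE 0.14) and the microtubule-binding NAV3 by 0.64 (SE 0.06). TIAM1, an activator of the GTPase Rac, rose by 0.62 (SE 0.10), and the adhesion receptor ADGRL2 by 0.56 (SE 0.07). All 24 raised genes have at least 1 annotated coding transcript under 100 kb, as do 173 of the 249.

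Some genes were spared. A gene was called kept when the 95% confidence interval of its log2 fold change lay wholly above −0.5, so that at least 70.7% of its level was left. This held for 60 of 249 genes (24.1%), against 69.9% of all genes tested and 78.1% of the expressed protein-coding genes of 400 kb or less. Of the 60, 24 were raised, 24 were not called and 12 were lowered by less than the limit. The width of the interval depends on the count, and the vehicle count was 484 at the median kept gene and 250 at the median of the other 189. Of the 33 genes not called, 9 had intervals reaching below −0.5 and could not be called kept either.

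The most abundant kept genes were DST and MACF1, the spectraplakins that link actin to microtubules, with 330, 333 and 383 CPM against 403, 400 and 356 CPM for DST. The DST groups overlapped, its log2 fold change was 0.15 (SE 0.06), and the call was lost when SCH replicate 1, SCH replicate 2, vehicle replicate 1 or vehicle replicate 2 was left out (log2 fold changes of 0.12, 0.13, 0.11 and 0.12), and also in limma on log2(FPKM + 0.1) and log2(FPKM + 1) (0.15 and 0.14). MACF1 had 307, 303 and 336 CPM against 417, 378 and 353 CPM (log2 fold change 0.28, SE 0.06). STAG2, a cohesin subunit, rose by 0.18 (SE 0.06), PALLD, an actin-bundling protein, by 0.19 (SE 0.06), RDX, which ties actin to the membrane, by 0.16 (SE 0.05), and the deacetylase HDAC9 by 0.31 (SE 0.06). Without vehicle replicate 1 the calls of STAG2 and PALLD were lost (both 0.15), and that of RDX was lost without SCH replicate 2 (0.15) or vehicle replicate 2 (0.11). OSBPL10, a lipid-binding protein, fell by 0.20 (SE 0.05) and is counted as kept, and its call was lost under library size scaling only (−0.09).

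Some of the longest genes were among those kept. CSMD1, a complement-regulating membrane protein whose gene spans 2060 kb, had 10.4, 9.69 and 9.0 CPM with vehicle and 10.5, 11.2 and 10.1 CPM with SCH, and its interval ran from −0.10 to 0.36. PDE4D, a phosphodiesterase of cyclic AMP (1553 kb), had 15.8, 18.7 and 19.8 CPM against 16.8, 17.8 and 18.5 CPM, with an interval from −0.23 to 0.16. The groups overlapped in both genes. IL1RAPL1, a synaptic receptor of the interleukin-1 family (1369 kb), had an interval from −0.01 to 0.41. RUNX1, a transcription factor (1217 kb), had one from −0.19 to 0.03. The span of a gene need not be the length copied in these cells. The 1 RefSeq start of RUNX1 lies 101 kb from the gene end, and the 8 of PDE4D lie between 1527 and 30.9 kb from it. In IL1RAPL1 the 1 RefSeq start lies 1369 kb from the gene end. The longest gene of all, DMD, which encodes dystrophin and spans 2242 kb, fell by 0.56 (SE 0.09). EYS (1987 kb) had a vehicle mean of only 24 counts and an interval from −0.80 to 0.43, and its groups overlapped. In RBMS3, an RNA-binding protein (1436 kb), the fall was 1.84 (SE 0.11).

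Across all expressed protein-coding genes the fold change varied with span. The median log2 fold change was 0.028 in genes under 25 kb (n = 4646), 0.027 from 25 to 100 kb (n = 4491) and 0.011 from 100 to 200 kb (n = 1433). It was −0.13 from 200 to 300 kb (n = 441) and −0.38 from 300 to 400 kb (n = 187). Past the limit it was −0.67 from 400 to 500 kb (n = 93), −1.14 from 500 to 750 kb (n = 98), −0.99 from 750 to 1000 kb (n = 37) and −0.93 over 1000 kb (n = 21). The share of kept genes went from 81.2% at 25 to 100 kb to 42.2% at 300 to 400 kb, 33.3% at 400 to 500 kb and 18.4% at 500 to 750 kb. Within the 249 genes Spearman's rho between span and log2 fold change was −0.18, a description across genes that share the same 6 libraries, and among those over 500 kb (n = 156) it was −0.025. The median thus fell from 200 to 750 kb and not beyond.

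**Figure D2:**
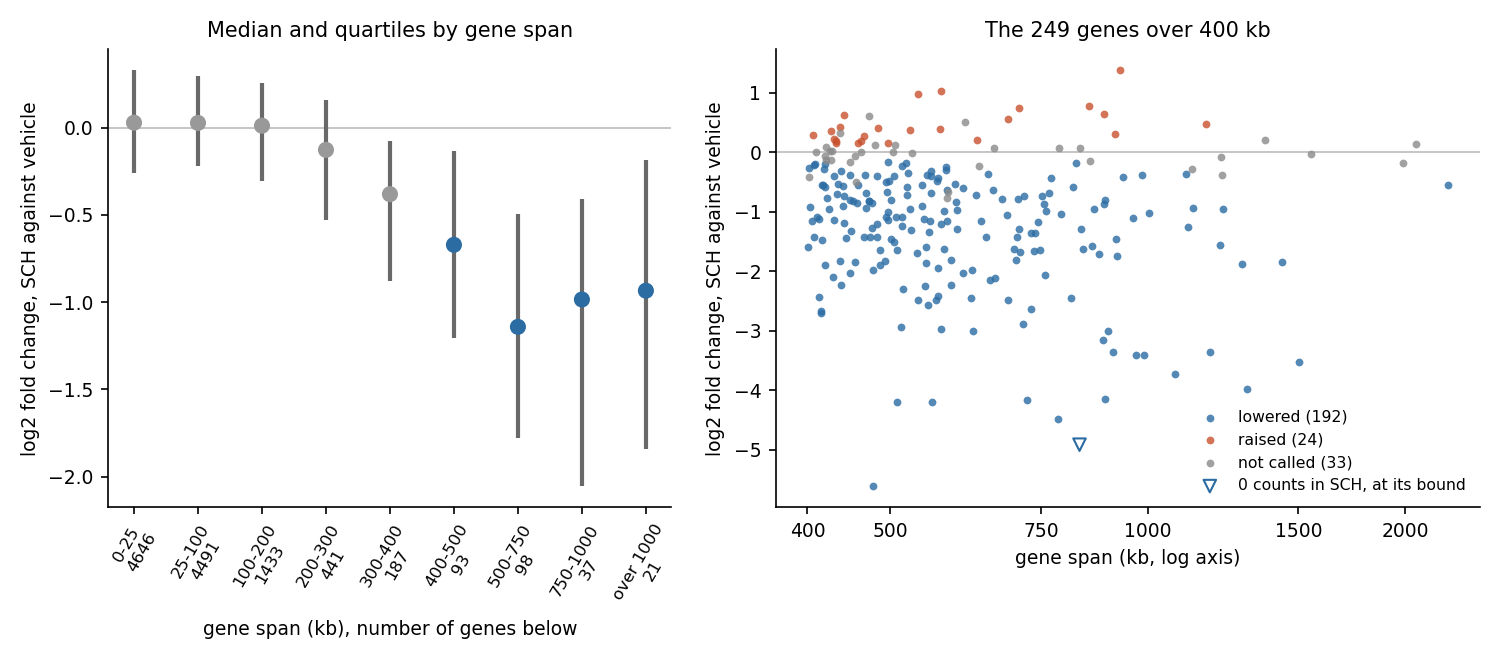
Left, the median (point) and quartiles (line) of the log2 fold change of expressed protein-coding genes by gene span in kb, with the number of genes under each bin; bins over 400 kb are in blue. Right, the log2 fold change of each of the 249 genes against span in kb on a log axis, coloured by call; the open triangle is the gene with 0 counts after SCH, at its bound of −4.91.

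The genes just inside and outside the limits were as follows. BMPR1B and TRPS1, just over 400 kb, had log2 fold changes of −1.59 and −0.28, and DTNA and TNIK, just under it, −0.38 and −0.63. PCSK5 and PLD5, both with a vehicle mean of 20.7 counts, had 0.61 and −1.19. MAGI2 and FRY, with 18.3 and 19.3 counts, had 0.41 and −2.12 and were left out.

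The length of the gene is not the length of each of its transcripts. For each gene the spans of its coding transcripts in GENCODE 29 were taken, a measure added after the fold changes were seen. With the median coding transcript under 100 kb (n = 32) the median log2 fold change was −0.07. Of these 32 genes, 14 (43.8%) were lowered and 12 (37.5%) raised, against 29.4% and 29.3% of all genes tested. From 100 to 200 kb (n = 44) the median was −0.55, from 200 to 400 kb (n = 85) −1.16 and from 400 to 800 kb (n = 79) −1.15. Spearman's rho with log2 fold change was −0.38 for the median transcript span, −0.23 for both the longest and the shortest, −0.12 for the longest intron, 0.06 for the number of exons and 0.24 for the exonic length. Given the median transcript span, rho for gene span was −0.04 among these genes over 400 kb. Genes of 400 kb or less had higher medians in the same bins of median transcript span. Their medians were 0.027 under 100 kb (n = 10051), −0.06 from 100 to 200 kb (n = 896) and −0.35 from 200 to 400 kb (n = 251). Within these bins their transcripts were also shorter, with medians of 18.6, 130 and 248 kb against 78.9, 160 and 285 kb in the genes over 400 kb. The bins thus do not compare genes at equal transcript span. The count moved with the response too, with a rho of 0.41 for the mean count over all samples, which a fall itself lowers, and of 0.26 for the vehicle count, where the genes of 400 kb or less had −0.16. Given the mean count, rho for the median transcript span was −0.35.

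The same difference was present within bands of gene span. At 400 to 500 kb the median log2 fold change was −0.28 in 39 genes whose median coding transcript was 200 kb or less and −0.93 in 54 genes where it was longer. At 500 to 750 kb the medians were −0.58 (n = 26) and −1.29 (n = 72), and over 750 kb they were −0.29 (n = 11) and −1.10 (n = 47). In 19 genes no coding transcript exceeded 400 kb, and here the median was −0.13. Of these 12 were kept (63.2%, beside 24.1% of the 249 and 69.9% of all genes tested). Of the same 19 genes 7 (36.8%, against 29.3% of all genes tested) were raised, EGLN3, AHR, RDX and STAG2 among them. A further 9 (47.4%, against 29.4% of all genes tested) were lowered, 4 of them by 1 or more, with ANO2 lowest at −2.67.

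**Figure D3:**
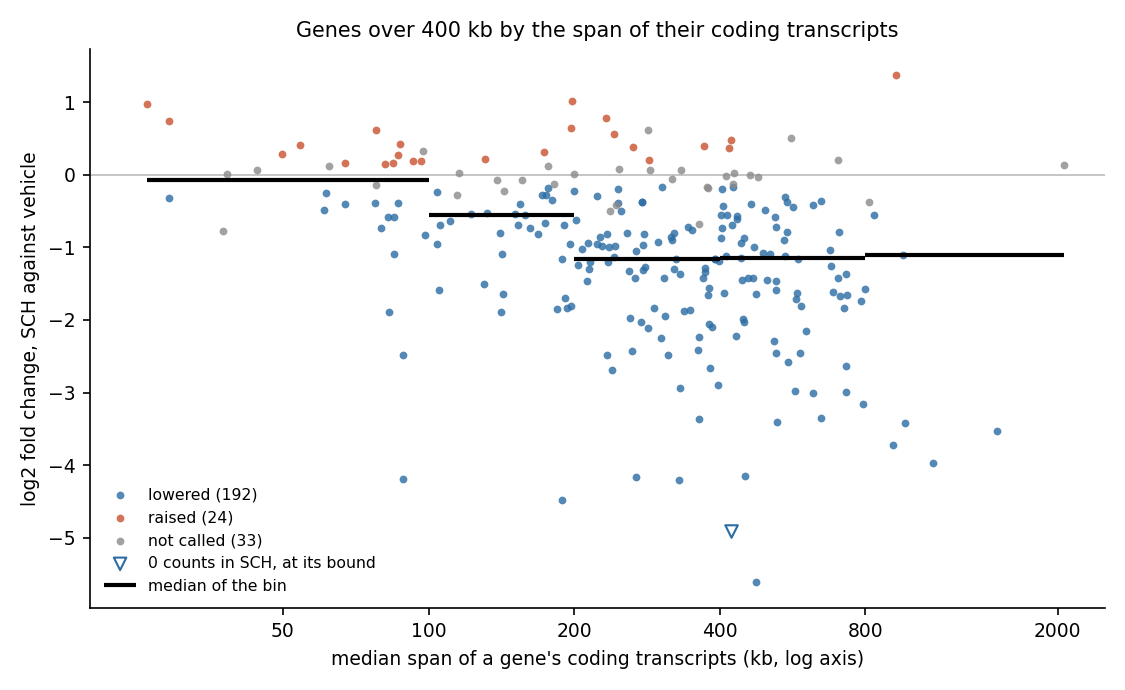
Log2 fold change of each of the 249 genes against the median span of its GENCODE 29 coding transcripts in kb, on a log axis, coloured by call. Black lines are bin medians, which go from −0.07 under 100 kb to −1.16 at 200 to 400 kb; the open triangle is the gene with 0 counts after SCH, at its bound.

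RefSeq starts gave a related picture. In 17 genes the innermost start lay within 100 kb of the gene end, and here the median log2 fold change was 0.019. Of these 17 genes, 6 were lowered and 6 raised, against 29.4% and 29.3% of all genes tested. Another count, that of kept genes, was 11 (64.7%), beside 26.3% of the 194 and 69.9% of all genes tested. In 139 genes the innermost start lay 300 kb or more from the end. Here the median was −0.99, with 111 lowered, 9 raised and 30 kept (21.6%). The distance runs to the annotated gene end and can exceed the length of a transcript from that start. RDX and STAG2, both raised, are in this group at 432 and 461 kb, although none of their coding transcripts exceeds 400 kb. Spearman's rho over the 194 genes was −0.31 for the distance from the innermost start to the gene end and 0.06 for the number of starts. PCDH9, the gene with the largest rise, also goes against this pattern, since its 1 start lies 928 kb from the gene end. Which start each count came from was not tested, because counts are per gene.

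The genes were grouped by function into 15 lists that hold 217 of the 249. The counts of each list stand beside 77.1% lowered and 9.64% raised over the 249 genes and 29.4% and 29.3% over all genes tested, and no list was tested against the others. Genes of the matrix had a median of −1.55, with 10 of 12 (83.3%) lowered and none raised. EDIL3, a secreted integrin ligand, had 78.5, 72.7 and 86.8 CPM with vehicle and 28.2, 30.6 and 28.6 CPM with SCH (log2 fold change −1.44, SE 0.07). LTBP1, which holds latent TGF-beta in the matrix, fell by 0.82 (SE 0.06). The 16 adhesion genes were split, with 9 lowered, 4 raised and a median of −0.59. TENM3, a teneurin, had 124, 116 and 130 CPM against 84.3, 83.0 and 71.8 CPM. The list thus held NLGN1 and SDK1 among the largest falls and PCDH9 and ADGRL2 among the largest rises.

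Of 16 genes of channels and transporters 14 (87.5%, beside 77.1% of the 249) were lowered and 1 was raised (median −1.21). KCNQ5, a potassium channel, had 34.1, 31.0 and 33.5 CPM with vehicle and 10.6, 10.3 and 11.0 CPM with SCH (log2 fold change −1.63, SE 0.08). GRIK4, a kainate receptor subunit, had 4.20, 3.79 and 3.65 CPM against 0.115, 0.0537 and 0.0526 CPM, a log2 fold change of −5.62 (SE 0.38) from few counts. ITPR2, the inositol trisphosphate receptor, fell by only 0.17 (SE 0.07), a call lost under 10 of the other settings. Scaffold and polarity genes were lowered in 16 of 18 (median −0.96) with none raised, and the smallest change among those named was in TANC2, which fell by 0.28 (SE 0.07).

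Signalling enzymes came next. Of 17 kinase and growth factor genes 15 (88.2%, beside 77.1% of the 249) were lowered and 2 raised (median −1.09). PRKCA, a protein kinase C, had 133, 131 and 137 CPM against 64.2, 62.1 and 62.1 CPM (log2 fold change −1.09, SE 0.05). RPTOR, the subunit that defines mTOR complex 1, fell by 0.77 (SE 0.06), and PRKG1, a cyclic GMP-dependent kinase, by 3.98 (SE 0.32). All 4 phosphatase genes were lowered, among them PTPRM by 1.63 (SE 0.06) and PTPRG by 1.65 (SE 0.07), while INPP4B, a lipid phosphatase, fell by 0.18 (SE 0.07) and lost its call under 8 settings. Of 8 genes of cyclic nucleotide and phospholipase C signalling 5 were lowered, with AKAP6, an anchor of protein kinase A, at 3.18, 2.62 and 2.53 CPM against 0.0573, 0.376 and 0 CPM. Its SCH counts were 1, 7 and 0, and its log2 fold change of −4.20 (SE 0.46) became −6.34 without SCH replicate 2 and −3.60 without SCH replicate 3. PDE10A had 30.1, 28.8 and 31.4 CPM against 32.2, 32.5 and 30.1 CPM, and these groups overlapped.

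Regulators of small GTPases were lowered in 13 of 19 (68.4%, beside 77.1% of the 249) and raised in 2 (median −0.69). TBC1D5, a GTPase-activating protein of Rab7, had 45.5, 46.6 and 48.2 CPM with vehicle and 12.6, 13.0 and 12.7 CPM with SCH, while the groups of DOCK4 overlapped by little (59.7, 65.9 and 69.2 CPM against 72.3, 70.9 and 68.9 CPM). DLC1, a GTPase-activating protein, fell by 0.18 (SE 0.06), a call lost under 3 settings. In the cytoskeleton list 15 of 24 genes were lowered and 6 raised, with a median of −0.42. Of the 24 genes 9 (37.5%) were kept, beside 24.1% of the 249 and 69.9% of all genes tested. ANK2 fell by 2.48 (SE 0.09) where its relative ANK3 rose. ANK2 had 35.5, 33.8 and 37.4 CPM against 7.05, 6.12 and 5.99 CPM.

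In the nucleus, 14 of 23 genes of transcription factors and their cofactors were lowered and 5 raised, with a median of −0.35. Of the 23 genes 10 (43.5%) were kept, beside 24.1% of the 249 and 69.9% of all genes tested. MAML3, a Notch coactivator, fell by 2.23 (SE 0.18). AHR, the aryl hydrocarbon receptor, had 87.4, 84.8 and 94.7 CPM with vehicle and 105, 107 and 97.8 CPM with SCH, and rose by 0.21 (SE 0.06). In AHR 32.3% of exonic bases are shared with another annotated gene, so that reads may be split between them. Chromatin and DNA repair genes were lowered in 9 of 12 and raised in 2, which were STAG2 and HDAC9. RNA-binding and RNA-modifying genes were lowered in 8 of 9 (median −1.08). SND1, a nuclease of the RNA silencing complex and the gene with the highest vehicle FPKM (57.7), had 394, 399 and 372 CPM against 217, 207 and 200 CPM. FTO, an RNA demethylase, fell by 0.86 (SE 0.07) and the splicing regulator CELF2 by 2.49 (SE 0.11).

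All 16 genes of membrane traffic were lowered, beside 77.1% of the 249 (median −1.04). LRBA, a BEACH-domain protein of vesicle traffic, had 74.9, 77.5 and 90.2 CPM with vehicle and 50.5, 49.9 and 44.7 CPM with SCH, and SORCS3, a sorting receptor, fell by 3.01 (SE 0.18). Metabolic enzymes were lowered in 16 of 18 (88.9%, median −1.36), with EGLN3 the 1 raised. DPYD, which degrades pyrimidines and fluorouracil, had 54.3, 52.5 and 60.1 CPM against 19.0, 18.9 and 22.7 CPM, or 36.4% of its level. ST6GALNAC3, a sialyltransferase, had few counts (44, 17 and 38 against 1, 3 and 1) and a log2 fold change of −4.20 (SE 0.53), or −4.85 without SCH replicate 2. ADK, adenosine kinase, fell by 0.31 (SE 0.06) and was kept. The 5 ubiquitin pathway genes were all lowered, with FAF1 at −0.59 (SE 0.06), FBXL17 at −0.72 (SE 0.09) and MARCH1 at −1.58 (SE 0.25). Of the 32 genes in no list 23 were lowered and 1 was raised.

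**Figure D4:**
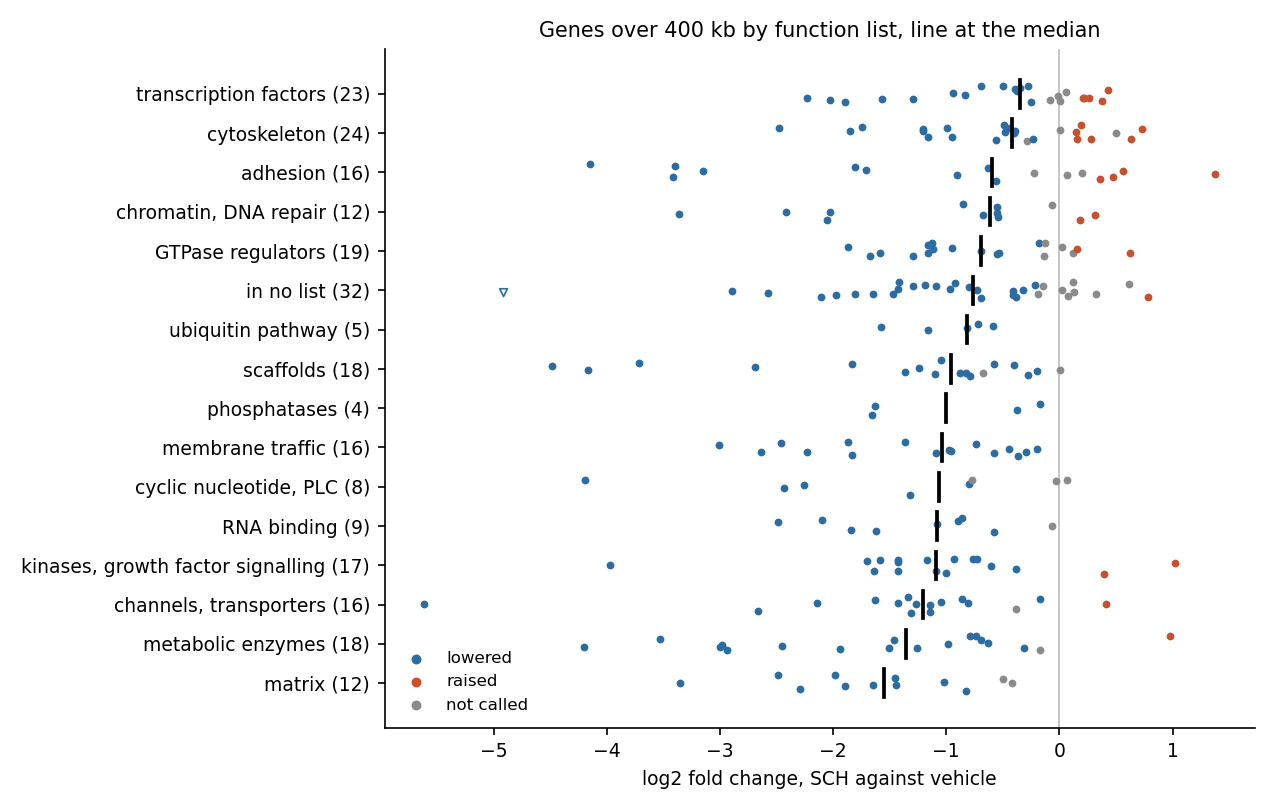
Log2 fold change of the 249 genes by function list, with the number of genes in each list; points are genes coloured by call, black lines list medians, and the open triangle is the gene with 0 counts after SCH, at its bound. Medians run from −1.55 (matrix) to −0.35 (transcription factors).

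Short genes of the same family, or in some cases partners in the same protein complex, were set beside these genes. In 19 such families or complexes with a gene over 400 kb and an expressed gene under 100 kb, the median of the long genes lay below that of the short ones in 18, and every long gene lay below every short one in 17. The 28 long genes had a median log2 fold change of −1.65, with 23 lowered and 2 raised, beside 77.1% and 9.64% of the 249. The 31 short genes had a median of 0.10, with 8 lowered and 15 raised, beside 29.4% and 29.3% of all genes tested. EXOC4, a subunit of the exocyst, which tethers secretory vesicles, had 55.6, 57.4 and 59.3 CPM with vehicle and 10.1, 10.7 and 10.5 CPM with SCH (log2 fold change −2.46, SE 0.08). Its partners under 100 kb were at 0.28 (EXOC1), 0.05 (EXOC3), 0.36 (EXOC5), 0.37 (EXOC7) and 0.29 (EXOC8). Of the longer partners, EXOC2 (208 kb) was at 0.13, EXOC6 (225 kb) at 0.26 and EXOC6B (650 kb) at −0.37. In the TRAPP complex TRAPPC9 fell by 2.64 (SE 0.14) beside values of 0.30, 0.08 and 0.44 for TRAPPC1, TRAPPC10 and TRAPPC11.

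SHANK2 was at −4.48 and SHANK3, of 58.9 kb, at 0.03, with 25 counts at the vehicle mean. GPC6 was at −3.35 and GPC1 at 0.63. The mitochondrial peptidase subunits IMMP2L and IMMP1L were at −3.00 and 0.28. RAD51B was at −3.36, RAD51C at 0.05 and RAD51D at −0.55. PRKCA and PRKCE were at −1.09 and −1.70, and PRKCD and PRKCI at 0.40 and 0.46. There were exceptions, since ROBO1 (1171 kb), a receptor of axon guidance, rose by 0.48 (SE 0.08) beside 0.23 for ROBO3 and −0.36 for ROBO4. In the receptor phosphatases PTPRK, at −0.38, lay above PTPRF (98.5 kb), at −0.88. FOXP1 (631 kb) and FOXP2 (607 kb) differed from each other, with a rise of 0.21 (SE 0.07) and a fall of 2.03 (SE 0.16).

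**Figure D5:**
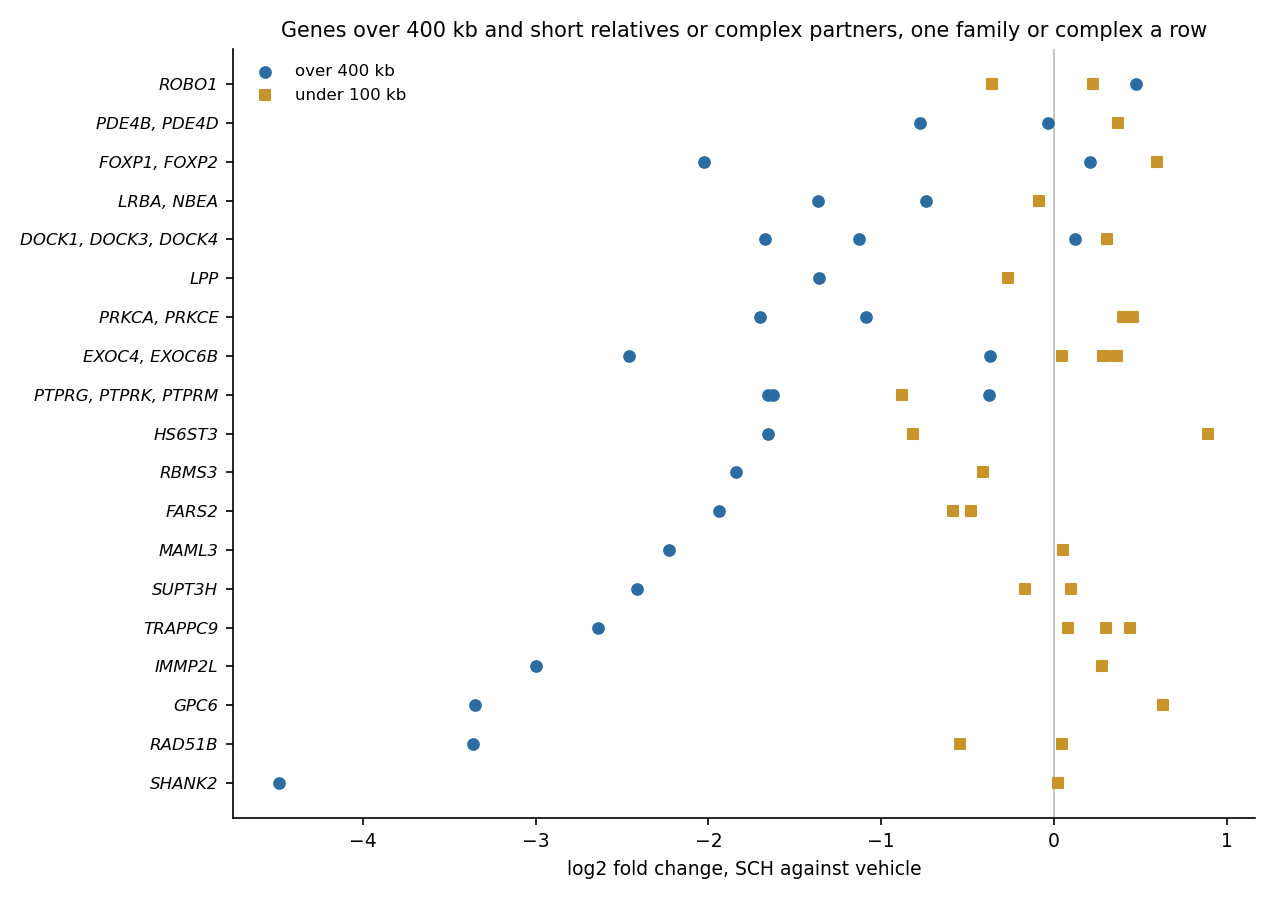
Log2 fold change of genes over 400 kb (blue circles, named at the left) and of their relatives or complex partners under 100 kb (yellow squares), 1 family or complex a row, 19 in all. Every circle lies left of every square in 17 rows, with the ROBO and PTPR rows as exceptions.

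Short genes lying inside these genes were examined as well. Of 26 tested genes under 100 kb within 24 of the long genes, 10 were lowered, 4 raised and 12 not called, against 29.4% lowered and 29.3% raised of all genes tested. Their median was −0.26 where that of their hosts was −1.19, and 17 of the 26 were pseudogenes, antisense or other genes that are not protein-coding. These 17 had a median of −0.34 (hosts −1.43), with 8 lowered and 1 raised. The 9 protein-coding genes had a median of −0.08 (hosts −0.41), with 2 lowered and 3 raised. Whether reads counted for pseudogenes came from similar genes elsewhere was not tested. CSTF2T, an intronless gene of mRNA 3′ end processing within PRKG1, had a log2 fold change of −0.08 (SE 0.06) beside −3.98 in the host, and TRIM32 within ASTN2 had −0.18 (SE 0.07) beside −3.40. MDH1, malate dehydrogenase, which lies within WDPCP, had 0.07 (SE 0.06) beside −1.30. Others fell with their host, such as the antisense gene RBMS3-AS3, by 0.99 (SE 0.23) beside −1.84 in RBMS3, and the pseudogene NPM1P27, by 0.85 (SE 0.09) beside −1.08 in FAM172A. These nested genes were chosen after their values were seen.

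Genes that act in transcription elongation and in relieving DNA supercoils were taken as a list of their own, at any span. Of 52 listed genes 49 were tested, 11 (22.4%) were lowered and 15 (30.6%) raised, against 29.4% and 29.3% of all genes tested, and the median was 0.04. The list as a whole thus stood near the background. POLR2A, the largest subunit of RNA polymerase II, had 189, 198 and 189 CPM with vehicle and 370, 352 and 336 CPM with SCH (log2 fold change 0.88, SE 0.05). HEXIM1, the inhibitor of the elongation kinase P-TEFb, rose by 0.83 (SE 0.05), and the PAF complex subunit CTR9 by 0.52 (SE 0.05). CDK9, CDK12 and CDK13, kinases of the polymerase tail, rose by 0.19 (SE 0.06), 0.17 (SE 0.05) and 0.26 (SE 0.06). In the other direction CCNH fell by 0.70 (SE 0.08), the histone chaperone subunit SSRP1 by 0.50 (SE 0.05) and the topoisomerases TOP1 and TOP2A by 0.34 (SE 0.05) and 0.39 (SE 0.05), while TOP2B rose by 0.31 (SE 0.06). None of these moved by 1 or more on the log2 scale, and the part of these genes in the falls of long genes was not tested.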

How the data were processed

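Poly-T purified mRNA of 6 samples was sequenced. The authors deposited raw counts per gene, with no normalization, and FPKM values per sample. The submitters' processing notes name CASAVA 1.8, HISAT2 2.0.5, featureCounts 1.5.0-p3, DESeq2 1.20.0 and GRCh38. The strand of the libraries is not given in the sources used here, so reads of overlapping genes may be mixed. The members and lists were chosen with earlier results of these data known, and 32 list assignments were changed after the files were read. SCH was compared with vehicle, with no covariate, by glmQLFTest of edgeR 4.0.16 under R 4.3.3 after filterByExpr and TMM scaling. The SE is the log2 fold change over the square root of F. Tested on simulated data of 14466 genes, the script recovered, of 40 genes at each log2 change, 40 at −2, 35 at −1, 32 at −0.5, 30 at 0.5 and 39 at 1, with 7.37% of calls false. No replicate was a copy of another, since chi-square over its degrees of freedom was 2.12 to 5.75 between them. GENCODE 29 coordinates equalled the deposited ones for all 249 members.

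Genes named are, among members, the 8 largest falls and 8 largest rises with a mean count of at least 50, the 6 longest, the 4 of highest vehicle FPKM, in each list the 2 of highest count and the largest fall, the 8 most abundant and 4 longest kept genes, threshold neighbours and relatives or complex partners. Alternatives were other scaling, filters, DESeq2 1.42.0, limma 3.58.1 on log2(FPKM + 0.1) and log2(FPKM + 1), a replicate block, leaving out each sample, and other member rules.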

Additional observations from a re-analysis of the deposited data

How the results depend on the processing

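Under the other scalings, filters and tools 170 to 192 of 249 genes were lowered (169 of 225 with at least 10 counts in every sample) and 21 to 29 raised, the fewest lowered in limma on log2(FPKM + 1). Leaving out each sample in turn gave 181 to 191 lowered, 19 to 26 raised, 58 to 65 kept and medians from −0.92 to −0.85. DESeq2 lowered 176, all of them also lowered in edgeR. With a span over 300 kb, 309 of 436 genes were lowered, 43 raised and 139 kept (median −0.59, rho −0.30). With a span over 500 kb, 126 of 156 were lowered, 12 raised and 29 kept (median −1.05, rho −0.025). The median was −0.80 with at least 10 counts in every sample, −0.77 with library size only, −0.65 and −0.30 in limma on log2(FPKM + 0.1) and log2(FPKM + 1), where the pseudocount shrinks low genes, and 136 were kept with the latter. With library size only, all tested genes had a median of 0.099, and 3295 of 8814 calls were falls, against 4332 of 8650. Members chosen by SCH counts gave a median of −0.73 and a rho of −0.14. Chosen after seeing the data, a longest coding transcript over 400 kb gave −0.94 and −0.14, and at least 100 vehicle counts gave −0.73 and −0.27. An interval above −0.25 kept 39.

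Same-numbered samples correlated at 0.105, −0.053 and 0.0998 in their deviations, and differently numbered ones at −0.200 to 0.138. With 3 samples a group, such values cannot decide whether the numbers pair the samples. The replicate block lowered 193 and raised 24 (median −0.88). PDE4D turned positive with library size only (0.070), without SCH replicate 1 (0.0087) and without vehicle replicate 3 (0.039), with a range of −0.12 to 0.039 over single samples left out, and RUNX1 with library size only (0.024). DOCK4 gained a call as raised with library size only (0.23) and without vehicle replicate 3 (0.17). With library size only, PDE10A (0.17) and IL1RAPL1 (0.30) gained one too. Of 63 named genes, 50 kept direction and call in each of the 14 settings that gave them a value, and some had none with at least 10 counts in every sample. The causes were not tested. With 3 samples a group, an exact permutation test cannot go below 0.10.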

Other observations

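Further genes, chosen after their values were seen, had large falls at moderate levels. NEGR1, an adhesion molecule of neurons, had 37.0, 37.6 and 44.4 CPM with vehicle and 4.30, 4.78 and 4.26 CPM with SCH, a log2 fold change of −3.15 (SE 0.10). MSI2, an RNA-binding regulator of translation, had 42.9, 36.6 and 42.7 CPM against 8.77, 9.82 and 9.83 CPM (−2.10, SE 0.09). SMYD3, a lysine methyltransferase, had 39.4, 36.4 and 35.4 CPM against 8.83, 9.02 and 8.89 CPM (−2.06, SE 0.09). In these 3 genes the groups stood far apart.

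BABAM2, a subunit of the BRCA1-A complex of DNA repair, went from 16.5, 17.8 and 14.3 CPM to 3.84, 3.44 and 4.57 CPM, or 24.5% of its level, and 13% of its exonic bases are shared with other genes. WWOX, an oxidoreductase whose gene spans 1113 kb, went from 18.1, 18.3 and 16.3 CPM to 7.85, 7.25 and 6.99 CPM, or 41.8%. BACH1, a transcription factor that represses heme oxygenase, rose from 39.9, 42.3 and 47.5 CPM to 56.5, 58.9 and 58.6 CPM (log2 fold change 0.43, SE 0.07).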
